A study of Mus musculus with 6 samples.

Results

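The 9 genes described here carry heme breakdown and iron storage, uptake and export. They are *Hmox1*, *Hmox2*, *Blvra*, *Blvrb*, *Slc40a1*, *Fth1*, *Ftl1*, *Tfrc* and *Cd163*, chosen by symbol from the 55416 genes of the count table. All 9 reached 10 counts in 2 or more of the 6 libraries, the filter that kept 16296 genes for testing. They were measured by RNA-Seq in coronary endothelial cells (ECs) sorted from mouse heart ventricles at E15.5, in 3 libraries of *ControlΔEC* and 3 of *Wt1KOΔEC* embryos. *ControlΔEC* embryos were *Pdgfb-CreERT2/+; Wt1 +/+; R26 mTmG/+*, and *Wt1KOΔEC* embryos were *Pdgfb-CreERT2/+; Wt1 LoxP/LoxP; R26 mTmG/+*. Both groups therefore carried the inducible Cre, expressed from *Pdgfb*, and the mTmG reporter, which labels recombined cells and their progeny with membrane GFP (mGFP). Both came from dams gavaged with tamoxifen (75 mg/kg) over E11.5 to E13.5, and only the *Wt1KOΔEC* group carried floxed alleles. The cross gave embryos of both genotypes within a litter. The labels call the libraries biological replicates and do not say how many hearts went into each, or which libraries share a litter.

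Heme is broken down by heme oxygenase, made in an inducible form by *Hmox1* and a constitutive form by *Hmox2*, to biliverdin, carbon monoxide and iron. Biliverdin is reduced to bilirubin by the enzymes of *Blvra* and *Blvrb*. The freed iron is stored in ferritin, built of the heavy chain (*Fth1*) and the light chain (*Ftl1*), or leaves the cell through ferroportin (*Slc40a1*). Iron bound to transferrin enters through the transferrin receptor (*Tfrc*), and *CD163* is a macrophage receptor for hemoglobin bound to haptoglobin. Transcription of *Hmox1*, of the ferritin chains and of ferroportin is repressed by BACH1 and activated by NRF2.

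Some of these mRNAs also carry iron-responsive elements (IREs), hairpins bound by iron regulatory proteins when iron is low. In a 5′ UTR the bound hairpin blocks translation, which RNA counts do not measure, and in the 3′ UTR of *Tfrc* it stabilises the mRNA. The hairpins are shown because, among the 9 genes, they divide those with a match into genes that keep or release iron and the one that brings it in. The GENCODE vM39 transcripts on GRCm39 were searched on the sense strand for a C, any 5 bases, a loop of CAGTG followed by A, C or T, and 5 bases that pair with the first 5. A match was found in the 5′ UTR of 3 of the 9 genes and in the 3′ UTR of 1, against 0.172% of all genes searched for the 5′ UTR and 0.591% for the 3′ UTR. The pattern was written to find IREs, which some of these mRNAs are known to carry, so these shares are no test of enrichment. Outside the 9 genes, the 5′ UTR of *Alas2*, a heme synthesis gene described below, also held a match. Each site of the 9 genes is printed 5′ to 3′ as 30 bases of the mRNA strand, with the unpaired C and the loop of 6 bases in capitals. The *Fth1* site lies at chr19:9960096-9960125 on the plus strand, the *Ftl1* site at chr7:45109202-45109231 on the minus strand and the *Slc40a1* site at chr1:45964624-45964653 on the minus strand. The 4 *Tfrc* sites lie on the plus strand of chromosome 16, at chr16:32450037-32450066, chr16:32450416-32450445, chr16:32450481-32450510 and chr16:32450528-32450557, and are given in that order.
Fth1, 5′ UTR: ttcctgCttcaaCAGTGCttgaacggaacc
Ftl1, 5′ UTR: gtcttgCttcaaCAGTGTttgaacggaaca
Slc40a1, 5′ UTR: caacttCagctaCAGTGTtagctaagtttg
Tfrc, the first: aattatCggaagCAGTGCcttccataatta
Tfrc, the second: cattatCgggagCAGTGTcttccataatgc
Tfrc, the third: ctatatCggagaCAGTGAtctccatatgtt
Tfrc, the fourth: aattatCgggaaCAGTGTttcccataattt
A match is a description of the letters and not a measured site of binding.

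The libraries held 26037324 to 44779020 counts, so that 3 counts, taken as the floor of detection, made 0.0608 to 0.119 CPM (counts scaled to a common library size). The floor reflects counting error alone, because reads were amplified without molecular identifiers. Levels are CPM after TMM normalization, given as the mean ± SD over 3 libraries. *Wt1*, the targeted gene, was at 134 ± 21.6 CPM in *ControlΔEC* and 17.9 ± 3.67 CPM in *Wt1KOΔEC*. The 18S ribosomal gene *Rn18s* took 13.2 to 15.3% of the counts in *ControlΔEC* and 21.1 to 26.5% in *Wt1KOΔEC*, and mitochondrially encoded genes 5.21 to 6.61% and 1.68 to 4.57%. With these genes left out, the log2 fold change of *Hmox1* was -0.83 and that of *Slc40a1* -0.55. Leaving them out does not remove any other difference between the libraries that goes with these shares, so its part in the values was not tested. The identifiers of the libraries follow each other within a genotype and no batch is named, so a batch and the genotype cannot be told apart. In sorted populations, fewer cells of a type and less RNA per cell cannot be told apart either. The 10 endothelial marker genes summed to 5970 to 7450 CPM in *ControlΔEC* and 6090 to 6980 CPM in *Wt1KOΔEC*, with *Pecam1*, a junction protein of ECs, at 1634 ± 235 and 1574 ± 150 CPM.

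The ferritin chains and *Hmox1* stood far above the other members. To compare genes, levels were divided by the length of all annotated exons merged, which can exceed that of the mRNA made. Per kb of this length, *Ftl1* was at 1432 CPM in *ControlΔEC*, *Hmox1* at 379 CPM and *Fth1* at 197 CPM. By mean CPM, not divided by length, *Ftl1* ranked 28, *Fth1* 122 and *Hmox1* 130 among the 55416 genes of *ControlΔEC*. The next member per kb was *Hmox2* at 10.4 CPM, followed by *Blvrb* at 6.81, *Slc40a1* at 5.99 and *Blvra* at 5.61 CPM per kb, and libraries of neighbouring genes in this run overlapped. *Tfrc* at 1.58 and *Cd163* at 0.621 CPM per kb were lowest, and also overlapped. *Hmox1* was above *Fth1* per kb in every *ControlΔEC* library (297 to 460 against 162.5 to 221 CPM per kb), whereas in *Wt1KOΔEC* the ranges met (183 to 250.4 against 152 to 200.4 CPM per kb). This order depends on the merged lengths, 1.759 kb for *Hmox1* and 3.52 kb for *Fth1*. Not divided by length, *Fth1* had the higher mean in *ControlΔEC* (692.5 against 666.3 CPM) and in *Wt1KOΔEC* (613.7 against 373.2 CPM).

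**Figure D1:**
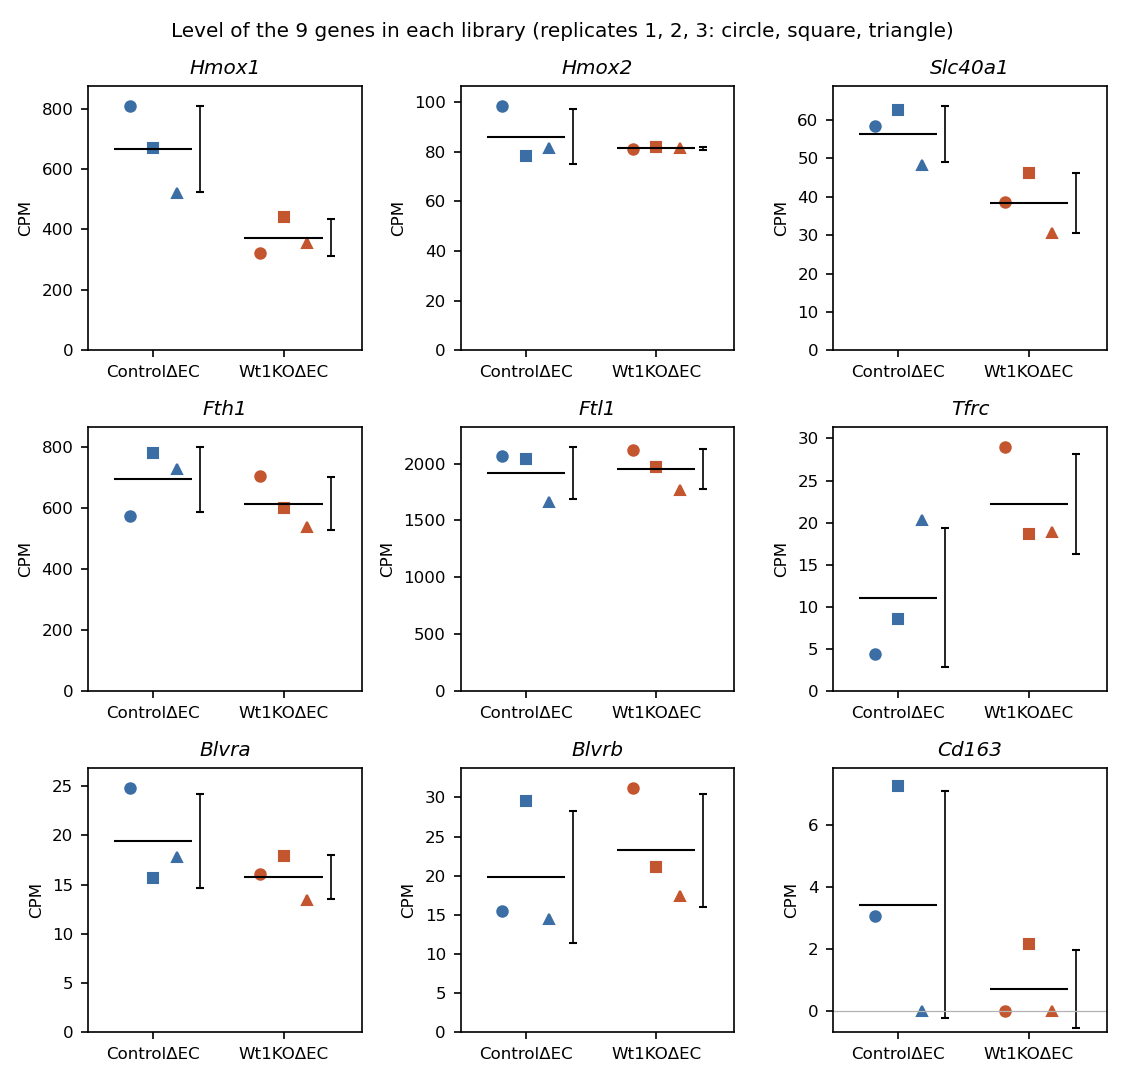
Level of each of the 9 genes in CPM (vertical axes, from 0 or, for *Cd163*, just below it) in the 3 *ControlΔEC* (blue) and 3 *Wt1KOΔEC* (orange) libraries, with circle, square and triangle for replicates 1, 2 and 3; horizontal lines are means and bars 1 SD to either side. *Hmox1* and *Slc40a1* are the genes whose libraries do not overlap between genotypes, with *Hmox1* at 522 CPM or more in *ControlΔEC* and at 440.5 CPM or less in *Wt1KOΔEC*.

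*Hmox1* (ENSMUSG00000005413.9; GRCm39 chromosome 8, 75820241 to 75827217), the inducible heme oxygenase, was lower in *Wt1KOΔEC*. It was at 809, 668 and 522 CPM in *ControlΔEC* replicates 1, 2 and 3, and at 322.5, 440.5 and 357 CPM in *Wt1KOΔEC* replicates 1, 2 and 3. Every *ControlΔEC* library was above every *Wt1KOΔEC* library. The means were 666 ± 144 and 373 ± 60.7 CPM, and the ratio of *Wt1KOΔEC* to *ControlΔEC* was 0.56. The log2 fold change was -0.84 (standard error 0.20, 95% interval -1.29 to -0.39), with an unadjusted p of 0.00223 and an adjusted p of 0.174 (edgeR's quasi-likelihood F test, adjusted over all genes tested). It therefore did not pass the adjusted threshold in edgeR. DESeq2 at its default settings gave nearly the same fold change, -0.84, and called the gene with an adjusted p of 0.00367. Over 9 alternatives to the processing the adjusted p ran from 0.00144 to 0.208, and from 0.0885 to 0.501 when single libraries were left out, with log2 fold changes between -0.98 and -0.67. The two-sided exact permutation test gave p = 0.1, the smallest that 3 libraries against 3 allow.

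*Hmox2* (ENSMUSG00000004070.16; chromosome 16, 4544216 to 4589816), the constitutive heme oxygenase, was nearly level. It was at 98.5, 78.2 and 81.3 CPM in *ControlΔEC* and at 80.9, 82.0 and 81.3 CPM in *Wt1KOΔEC*. Apart from *ControlΔEC* replicate 1 the libraries lay close together, and the genotypes overlapped. The log2 fold change was -0.08 (standard error 0.16, 95% interval -0.43 to 0.27, adjusted p = 0.905, edgeR), and 0.03 without *ControlΔEC* replicate 1. In GENCODE vM39, exons of *Hmox2* overlap in part those of *Cdip1* on the other strand. The libraries did not keep the strand, so that reads from the shared stretch, whose length was not measured, cannot be told apart. The same holds for *Slc40a1* with *Gm69542*, *Fth1* with *Gm36913*, *Ftl1* with *Gm10252* and *Blvra* with *Gm75586*, while *Hmox1* and *Blvrb* overlap no annotated gene.

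The count ratio of *Hmox1* to *Hmox2* within a library needs no normalization. It was 8.21, 8.55 and 6.41 in *ControlΔEC* and 3.99, 5.38 and 4.39 in *Wt1KOΔEC*, without overlap. The mean log2 ratio was 2.94 ± 0.23 in *ControlΔEC* and 2.19 ± 0.22 in *Wt1KOΔEC*, a difference of -0.75 (two-sided exact permutation test, p = 0.1). When single libraries were left out this difference stayed between -0.88 and -0.66.

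The biliverdin reductases showed no difference larger than their spread. *Blvra* (ENSMUSG00000001999.16; chromosome 2, 126912556 to 126939017), the reductase of biliverdin IXα, was at 24.8, 15.6 and 17.8 CPM in *ControlΔEC* and 16.1, 17.9 and 13.5 CPM in *Wt1KOΔEC*. Its log2 fold change was -0.30 (95% interval -0.90 to 0.31, adjusted p = 0.731, edgeR), and ranged from -0.43 without *ControlΔEC* replicate 2 to -0.08 without *ControlΔEC* replicate 1. *Blvrb* (ENSMUSG00000040466.17; chromosome 7, 27147275 to 27165569), which also reduces flavins, was at 15.4, 29.5 and 14.5 CPM in *ControlΔEC* and 31.3, 21.1 and 17.4 CPM in *Wt1KOΔEC*. The log2 fold change was 0.23 (95% interval -0.55 to 1.01, adjusted p = 0.864, edgeR), and -0.04 without *Wt1KOΔEC* replicate 1.

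*Slc40a1* (ENSMUSG00000025993.11; chromosome 1, 45947211 to 45965683), the iron exporter and one of the mRNAs with a 5′ hairpin printed above, was the other member whose libraries did not overlap. It was at 58.5, 62.5 and 48.2 CPM in *ControlΔEC* and at 38.6, 46.2 and 30.6 CPM in *Wt1KOΔEC*. The lowest *ControlΔEC* library was only slightly above the highest *Wt1KOΔEC* library. The means were 56.4 ± 7.34 and 38.5 ± 7.77 CPM, with a log2 fold change of -0.55 (standard error 0.21, 95% interval -1.02 to -0.08). The unadjusted p was 0.026 and the adjusted p 0.313 in edgeR, and DESeq2 gave an adjusted p of 0.139 within a range of 0.139 to 0.314 over 9 alternatives, so the gene passed the adjusted threshold in none of them. Left out in turn, the libraries gave log2 fold changes from -0.71 to -0.41. The exact permutation test gave p = 0.1.

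The ferritin chains were not separated by genotype. *Fth1* (ENSMUSG00000024661.8; chromosome 19, 9957911 to 9962462), whose product oxidizes iron for storage, was at 572, 779 and 727 CPM in *ControlΔEC* and 705, 600 and 536 CPM in *Wt1KOΔEC*. *ControlΔEC* replicate 1 was the low library of its group and lay among those of *Wt1KOΔEC*. The log2 fold change was -0.17 (95% interval -0.57 to 0.22, adjusted p = 0.762, edgeR), and ranged from -0.29 without *ControlΔEC* replicate 1 to -0.08 without *ControlΔEC* replicate 2. *Ftl1* (ENSMUSG00000050708.17; chromosome 7, 45107367 to 45109308), the chain that aids formation of the iron core, was at 2064, 2040 and 1658 CPM in *ControlΔEC* and 2119, 1971 and 1769 CPM in *Wt1KOΔEC*. Its log2 fold change was 0.02 (95% interval -0.30 to 0.35, adjusted p = 0.975, edgeR), and -0.13 when scaled by library size only. *Ftl1* shares near-identical sequence with its processed copies, and counts assigned to *Ftl1-ps1* and *Ftl1-ps2* made 1.31 to 2.77% of their sum with *Ftl1*. The count ratio of *Fth1* to *Ftl1* was 0.277, 0.382 and 0.438 in *ControlΔEC* and 0.333, 0.304 and 0.303 in *Wt1KOΔEC*, with a log2 difference of -0.20 (two-sided exact permutation test, p = 0.4).

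*Tfrc* (ENSMUSG00000022797.17; chromosome 16, 32427556 to 32451612), the iron import receptor with the 3′ hairpins, had a higher mean in *Wt1KOΔEC* but varied widely in *ControlΔEC*. It was at 4.49, 8.61 and 20.3 CPM in *ControlΔEC* and at 29.0, 18.6 and 19.0 CPM in *Wt1KOΔEC*. *ControlΔEC* replicates 1 and 2 lay below every *Wt1KOΔEC* library, and replicate 3 lay within their range. The log2 fold change was 1.00 (standard error 0.50, 95% interval -0.12 to 2.12), with an unadjusted p of 0.0741 and an adjusted p of 0.442 in edgeR. It was 0.62 without *ControlΔEC* replicate 1 and 1.76 without *ControlΔEC* replicate 3. The count ratio of *Slc40a1* to *Tfrc*, exporter over importer, was 13, 7.26 and 2.38 in *ControlΔEC* and 1.33, 2.48 and 1.62 in *Wt1KOΔEC*. *ControlΔEC* replicate 3 overlapped *Wt1KOΔEC* replicate 2, and the log2 difference was -1.80 (two-sided exact permutation test, p = 0.2).

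**Figure D2:**
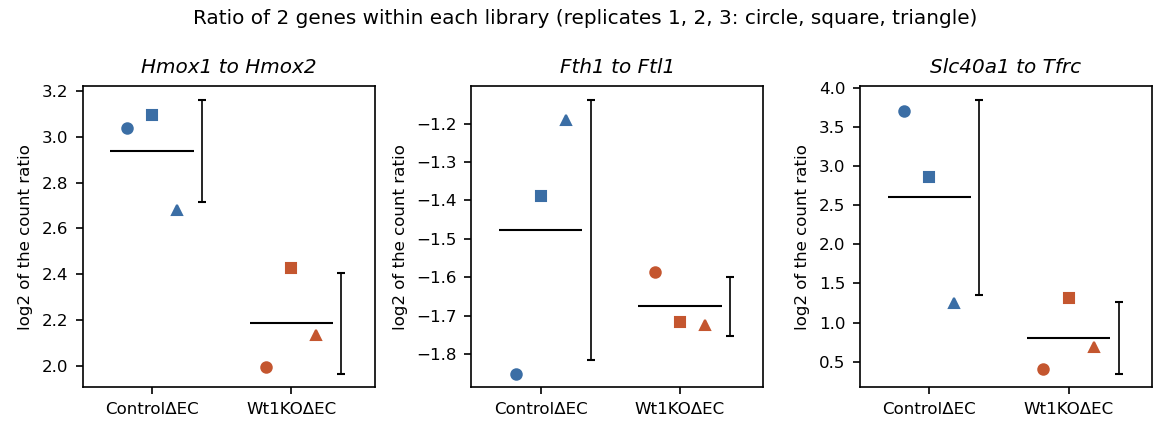
Log2 of the count ratio of *Hmox1* to *Hmox2*, *Fth1* to *Ftl1* and *Slc40a1* to *Tfrc* in each library (vertical axes, not starting at 0), by genotype; lines are means, bars 1 SD to either side, and symbols mark replicates 1, 2 and 3. The ratio of *Hmox1* to *Hmox2* is the one without overlap between genotypes, at means of 2.94 and 2.19.

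*Cd163* (ENSMUSG00000008845.10; chromosome 6, 124281606 to 124307560) had no count in 3 of the 6 libraries. It had 137, 359 and 0 counts in *ControlΔEC* and 0, 77 and 0 counts in *Wt1KOΔEC*, that is 3.06, 7.27 and 0 CPM against 0, 2.16 and 0 CPM. Libraries with no count occurred in both genotypes. In the libraries at 0 the depth allows up to 0.119 CPM. edgeR gave an adjusted p of 0.75, and no fold change is given because it depends on the count added to zeros.

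Of the 9 members, 0 were called by edgeR at an adjusted p under 0.05 with a log2 fold change beyond 0.58 in either direction, a rule that 0.0736% of all genes tested passed. DESeq2 with the same limits called 1, *Hmox1*, where it called 4.71% of all genes tested. At an unadjusted edgeR p under 0.05, *Hmox1* and *Slc40a1* passed, both lower, where 13.1% of all genes passed in either direction and 7.12% were lower. With the fold change limit added to the unadjusted p, 1 member passed (*Hmox1*), beside 10.1% of all genes. The libraries of 2 members, the same ones, did not overlap and were lower in *Wt1KOΔEC*, and no member was higher without overlap. Over all genes, 19.3% did not overlap in either direction, 8.95% being lower and 10.4% higher, so the members' share was near that of all genes. In all, 3 members had a positive and 6 a negative log2 fold change, with a median of -0.17 beside -0.03 over all genes tested.

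**Figure D3:**
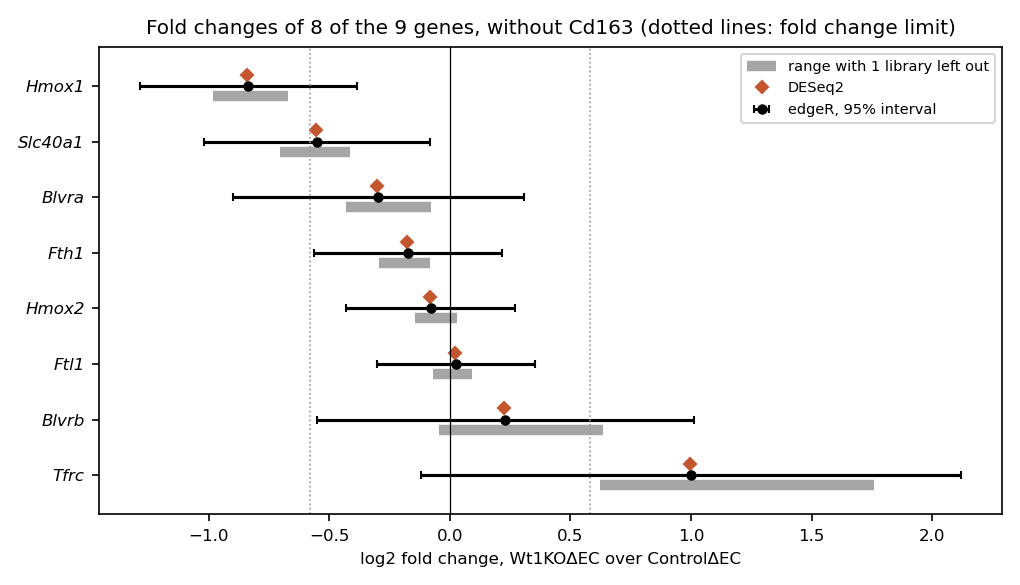
Log2 fold changes of *Wt1KOΔEC* over *ControlΔEC* (horizontal axis) for 8 of the 9 genes, leaving out *Cd163*; black points and lines are edgeR values with 95% intervals, orange diamonds DESeq2 values, and grey bars the range with 1 library left out. The intervals of *Hmox1* and *Slc40a1* lie below 0, and that of *Tfrc* is the widest, from -0.12 to 2.12.

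The rest of heme and iron handling was read from 5 lists, of which 60 of 68 genes were tested. None of the 60 was called by edgeR, whereas DESeq2 called 2 higher and 7 lower, beside 2.14% and 2.57% of all genes. At an unadjusted edgeR p under 0.05, 4 were higher and 13 lower, beside 5.96% and 7.12% of all genes. The median log2 fold change of the 60 was -0.18. The values that follow are edgeR's log2 fold changes with the p adjusted over all genes tested, none of which passed.

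In heme synthesis, 1 of 12 genes was higher and 2 were lower at an unadjusted p under 0.05 in edgeR, DESeq2 called 1 in each direction, and the median was -0.05. *Alad*, the enzyme of the second step of heme synthesis, was at 39.6 ± 6.77 CPM in *ControlΔEC* and 63.5 ± 11 CPM in *Wt1KOΔEC* (log2 fold change 0.68, adjusted p = 0.24 in edgeR). *Alas2*, the erythroid enzyme of the first step, was at 139 ± 78.1 and 62.9 ± 11.7 CPM (-1.15, adjusted p = 0.243 in edgeR). *Fech*, which inserts iron into the ring in the last step, was at 67.3 ± 16.1 and 44.1 ± 1.55 CPM (-0.61, adjusted p = 0.261 in edgeR). *Alas2* is also an erythroid marker. The 14 erythroid markers, all detected, summed to 6570 to 14400 CPM in *ControlΔEC* and 5150 to 8550 CPM in *Wt1KOΔEC*, with overlap, and most of the sum came from adult globins. Of 13 tested, 6 had a positive and 7 a negative log2 fold change, with a median of -0.09. DESeq2, which called 2.57% of all genes lower and 2.14% higher, called *Alas2* lower and 2 embryonic globins, named after their values were seen, higher. These were *Hbb-y* (26.2 ± 18.1 and 156 ± 46.6 CPM) and *Hba-x* (10.9 ± 8.12 and 47.4 ± 20.8 CPM). The part of erythroid RNA in the *Alas2* value was not tested.

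In heme uptake, export and transport, 0 of 10 genes were higher and 3 lower at an unadjusted p under 0.05 in edgeR, DESeq2 called 2 of them, and the median was -0.46. *Abcb6*, a mitochondrial and membrane transporter of porphyrins, was at 16.3 ± 4.61 CPM in *ControlΔEC* and 6.26 ± 0.984 CPM in *Wt1KOΔEC* (-1.38, adjusted p = 0.17 in edgeR). *Abcg2*, an exporter that carries porphyrins among other substrates, was at 228 ± 35.0 and 149 ± 7.08 CPM (-0.62, adjusted p = 0.209 in edgeR). Neither gene, both named for a small p, overlapped between genotypes. Over the list, 3 of 10 genes were lower without overlap and 0 higher, beside 8.95% and 10.4% of all genes. *Slc48a1*, which moves heme out of lysosomes, was at 48.0 ± 14.4 and 29.8 ± 4.81 CPM with overlapping libraries (-0.69, adjusted p = 0.307 in edgeR).

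In iron import, export and mobilization, 0 of 15 genes were higher and 2 lower at an unadjusted p under 0.05 in edgeR, DESeq2 called 1, and the median was -0.17. *Ncoa4*, the receptor that carries ferritin to lysosomes, was at 152 ± 23.3 CPM in *ControlΔEC* and 99.3 ± 7.43 CPM in *Wt1KOΔEC* (-0.61, adjusted p = 0.209 in edgeR; DESeq2 adjusted p = 0.0139). *Trf*, transferrin, was at 82.0 ± 33.1 and 50.4 ± 8.55 CPM (-0.70, adjusted p = 0.341 in edgeR). *Slc39a8*, an importer of zinc, manganese and iron, had 9.60 ± 1.40 and 16.2 ± 5.94 CPM and missed the unadjusted threshold (0.75, adjusted p = 0.384 in edgeR).

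In iron sensing and the hepcidin axis, 2 of 7 genes were higher and 0 lower at an unadjusted p under 0.05 in edgeR, DESeq2 called 1, and the median was 0.05. *Bmp2*, made by ECs and, in liver, a signal for hepcidin, was at 12.8, 12.9 and 12.1 CPM in *ControlΔEC* and 39.1, 30.3 and 28.2 CPM in *Wt1KOΔEC*. The genotypes were well apart, with a log2 fold change of 1.37 (standard error 0.23, unadjusted p = 0.000189, adjusted p = 0.108 in edgeR; DESeq2 adjusted p = 1.27e-06). *Bmp6*, the iron-responsive signal for hepcidin in liver ECs, was at 2.04 ± 0.832 and 5.92 ± 1.39 CPM (1.54, adjusted p = 0.309 in edgeR). *Fbxl5*, which marks an iron regulatory protein for degradation when iron is plentiful, was at 64.2 ± 5.01 and 50.6 ± 6.55 CPM (-0.35, adjusted p = 0.441 in edgeR).

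In the list of BACH1, NRF2 and their partners and targets, to which *Hmox1* belongs by its control, 1 of 16 genes was higher and 6 were lower at an unadjusted p under 0.05 in edgeR. DESeq2 called 3, all lower, and the median was -0.38. *Mafg*, a small MAF protein that pairs with BACH1 and NRF2, was at 37.1 ± 6.98 CPM in *ControlΔEC* and 17.5 ± 3.29 CPM in *Wt1KOΔEC* (-1.08, adjusted p = 0.161 in edgeR). *Gclm*, a subunit of the enzyme that starts glutathione synthesis, was at 114 ± 24.2 and 64.9 ± 5.08 CPM (-0.82, adjusted p = 0.165 in edgeR). *Srxn1*, which repairs oxidized peroxiredoxins, was at 42.7 ± 18.3 and 16.4 ± 5.93 CPM (-1.38, adjusted p = 0.209 in edgeR). None of these 3, named for the smallest p of the list, overlapped between genotypes. Over the list, 6 of 16 genes were lower without overlap and 1 was higher, beside 8.95% and 10.4% of all genes. The regulators themselves, named after their values were seen, did not pass. *Bach1* was at 14.5 ± 3.53 and 9.98 ± 0.229 CPM and was also lower without overlap (-0.54, adjusted p = 0.481 in edgeR). *Nfe2l2*, which encodes NRF2, was at 227 ± 79.8 and 219 ± 21.2 CPM with overlapping libraries (-0.05, adjusted p = 0.968 in edgeR).

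**Figure D4:**
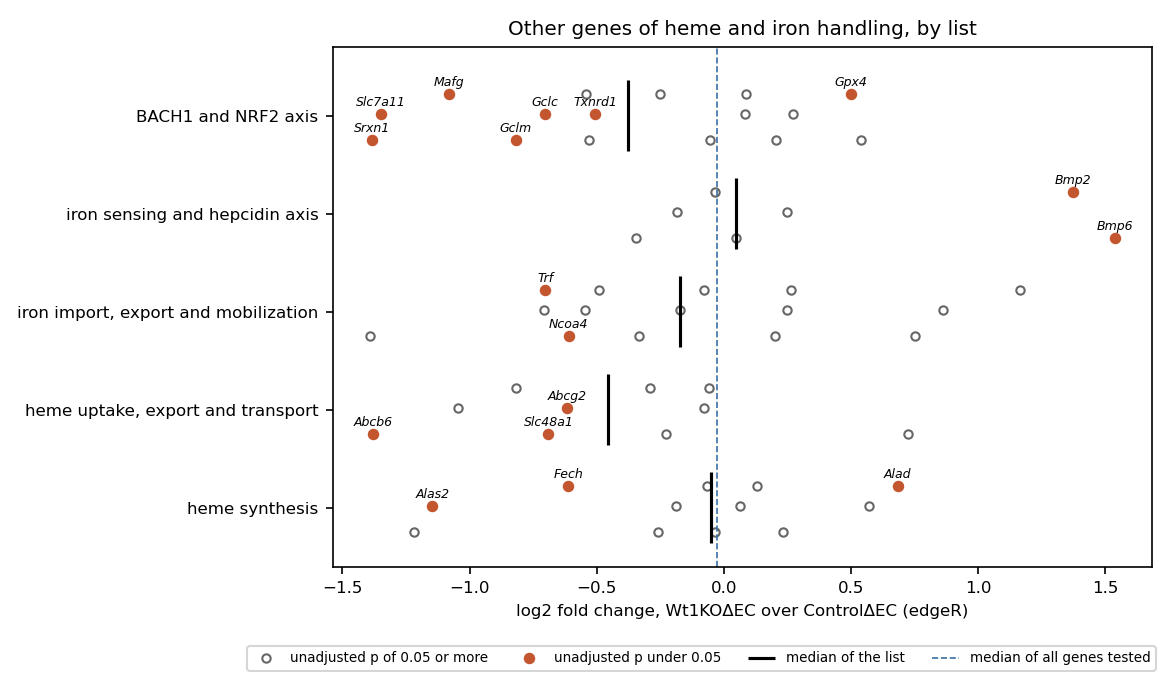
Log2 fold changes of *Wt1KOΔEC* over *ControlΔEC* (horizontal axis) for the 60 tested genes of 5 lists; filled points have an unadjusted edgeR p under 0.05 and are named, black bars are list medians, and the dashed line is the median of all genes tested. List medians run from -0.46 (heme uptake, export and transport) to 0.05 (iron sensing and hepcidin axis), and the height of a point within a list has no meaning.

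Macrophages recycle heme iron and express *Hmox1*, *Slc40a1* and *Cd163* strongly, so their markers are given beside these genes. All 18 macrophage markers were detected and none was at 0 in every library. Of these, 17 had a negative log2 fold change, beside 8474 of all 16296 genes tested. In edgeR, 7 were lower at an unadjusted p under 0.05, beside 7.12% of all genes, and 0 were called. DESeq2 called 3 lower, beside 2.57% of all genes. The exception in direction was *Timd4*, named after its values were seen, which had no count in any *ControlΔEC* library and 53, 1 and 33 counts in *Wt1KOΔEC*. It was higher at an unadjusted p under 0.05 in edgeR, and DESeq2 called it higher (adjusted p = 0.0261). Their sum was 622, 1280 and 475 CPM in *ControlΔEC* and 528, 459 and 338 CPM in *Wt1KOΔEC*. *ControlΔEC* replicate 2 stood high and the other libraries overlapped. *Csf1r*, the macrophage growth factor receptor and the most abundant marker, was at 153, 327 and 103 CPM in *ControlΔEC* and at 72.5, 92.1 and 57.1 CPM in *Wt1KOΔEC*, without overlap. *Hmox1* was highest in *ControlΔEC* replicate 1, where the macrophage sum was 622 CPM, and not in replicate 2. Without *ControlΔEC* replicate 2 the log2 fold change of *Hmox1* was -0.83 (adjusted p = 0.189, edgeR), and that of *Slc40a1* was -0.47 (adjusted p = 0.403, edgeR). *Cd163* was highest in *ControlΔEC* replicate 2, and *Csf1r* remained higher in the other *ControlΔEC* libraries than in *Wt1KOΔEC*. The part of macrophage RNA in the values of *Hmox1*, *Slc40a1* and *Cd163* was not tested.

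**Figure D5:**
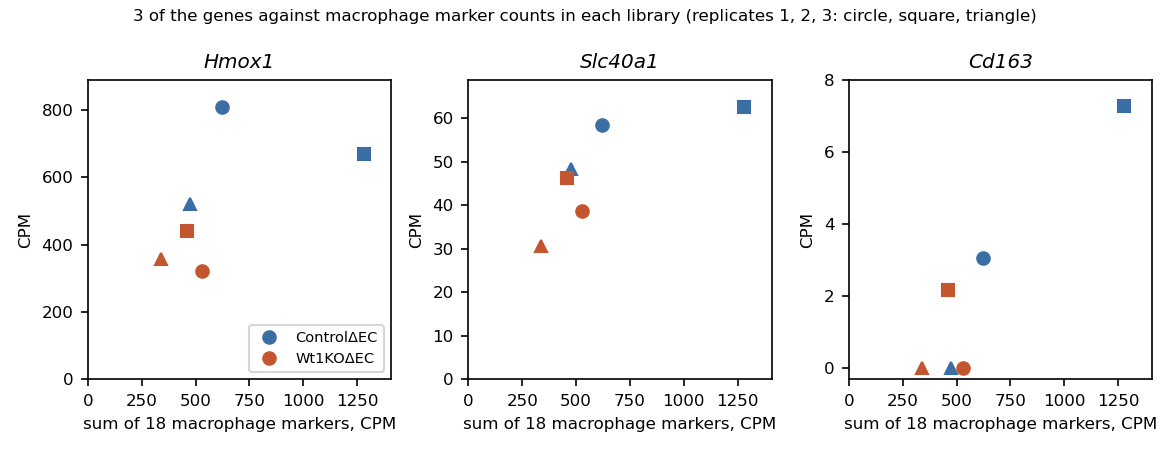
Levels of *Hmox1*, *Slc40a1* and *Cd163* in CPM (vertical axes) against the summed CPM of 18 macrophage markers (horizontal axes) in each of the 6 libraries; blue is *ControlΔEC*, orange *Wt1KOΔEC*, and circle, square and triangle are replicates 1, 2 and 3. *ControlΔEC* replicate 2 lies far to the right at 1280 CPM, with *Hmox1* at 668 CPM, below its level of 809 CPM in replicate 1.

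Markers of other cell types were summed in the same way. The 7 endocardial markers summed to 356 to 458 CPM in *ControlΔEC* and 665 to 813 CPM in *Wt1KOΔEC*. Much of this difference came from *Plvap*, a protein of endothelial diaphragms, at 68.1 ± 12.9 and 338 ± 20.5 CPM. *Plvap* had the highest mean of the list over all 6 libraries and was its 1 gene called by edgeR (adjusted p = 0.00319). All 7 had a positive log2 fold change. Of these, 2 were higher without overlap and DESeq2 called 2 higher, beside 10.4% and 2.14% of all genes. The 7 fibroblast markers summed to 584 to 868 and 1160 to 1370 CPM, led by *Col3a1*, a collagen. Of these, 4 were higher without overlap and DESeq2 called 3 higher, beside 10.4% and 2.14% of all genes. In edgeR 1 was called, *Col1a1*, named after its values were seen, at 114 ± 12.5 and 290 ± 40.0 CPM (adjusted p = 0.0441). The paper lists *Col1a1* among fibroblast genes, and also counts *Col1a1*, *Col3a1* and *Dcn*, the 3 called by DESeq2, as venous markers. The 7 mural markers summed to 176 to 364 and 141 to 160 CPM, and *Rgs5*, a pericyte gene with the highest mean over all 6 libraries, was at 119 ± 79.4 and 20.9 ± 4.00 CPM. Of the 6 mural markers tested, 4 were lower without overlap and DESeq2 called 3 lower, beside 8.95% and 2.57% of all genes. The paper counts *Rgs5* and *Kcnj8*, both of this list, as arterial markers. The 8 cardiomyocyte markers, led by *Myh7*, a myosin, overlapped at 124 to 178 and 99.0 to 229 CPM. The 7 epicardial markers also overlapped in their sum, at 11.7 to 18 and 17.5 to 49.7 CPM. In *Wt1KOΔEC*, 4 of them were higher without overlap and DESeq2 called 2 higher, beside 10.4% and 2.14% of all genes. *Aldh1a2*, a retinoic acid enzyme with the highest mean of that list over all 6 libraries, was at 7.04 ± 5.78 and 6.8 ± 2.76 CPM. No list had a gene at 0 in every library, and the part of these cells in the values of the 9 genes was not tested.

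The genes whose log2 CPM ran most like *Hmox1* across the 6 libraries, among 8469 genes with a mean of at least 10 CPM, were *Kdm3b* (Pearson r 0.992), *Taf9b* (0.989), *Stt3b* (0.986), *Nab2* (0.985) and *Resf1* (0.982). For *Slc40a1* they were *Apba1* (0.990), *Ptgr2* (0.985), *Wnk1* (0.983), *Mfn2* (0.982) and *Trappc12* (0.977). *Hmox1* and *Slc40a1* themselves gave r 0.890. These values describe 6 points that share the difference between genotypes, and so many genes were compared that the highest are selected.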

How the data were processed

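The authors sorted mGFP+ cells, made libraries with SMART-seq2 and Nextera XT, which keep no strand and carry no molecular identifiers, and sequenced them in pairs. Per the study's methods, reads were aligned to GRCm39 with STAR 2.7.8a and genes of GENCODE vM27 quantified with RSEM 1.3.0, although the submitters' processing notes list GRCm38. The authors deposited the expected counts from RSEM in whole numbers and without normalization. These were used unchanged, and no column of another series was present. Amplified reads do not stand for separate molecules, and genes with near-identical copies can exchange reads.

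Groups and replicate numbers came from the sample labels. Genes reaching 10 counts in 2 or more libraries were tested with edgeR 4.0.16 in R 4.3.3 (TMM normalization, quasi-likelihood F test, Benjamini-Hochberg over all genes tested), and a gene was called at an adjusted p under 0.05 with a log2 fold change beyond 0.58 in either direction, the limit of the study's methods. P-values measure the spread between 3 libraries per genotype. Count ratios were compared with two-sided exact permutation tests over libraries. Positions and exonic lengths (all exons merged) came from GENCODE vM39 on GRCm39, which matched 54749 of 55416 gene identifiers. All 9 genes, *Wt1*, the 3 genes of each pathway list with the smallest unadjusted p, and the gene of each marker list with the highest mean over the 6 libraries are named, with the 5 genes most like *Hmox1* and *Slc40a1*. The genes and lists were chosen with earlier results of these data known. The erythroid list counts *Hba-a1* and *Hba-a2*, near-identical copies that can share reads, and *Hba-a1* led it at 3548 ± 1501 CPM in *ControlΔEC* and 2444 ± 744 CPM in *Wt1KOΔEC*. The fits were tested on simulated data with known changes.

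The alternatives were DESeq2 1.42.0 (the study's methods name version 1.18), limma-voom (limma 3.58.1), RLE size factors, library size only, no filter, filterByExpr, no *Rn18s* or mitochondrial genes, a replicate block and leaving out single libraries; for levels CPM per kb, and for ratios an added count of 10 or summing pseudogenes. DESeq2 with the filter of edgeR was added after seeing the data.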

Additional observations from a re-analysis of the deposited data

How the results depend on the processing

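The count of genes called, 12 in edgeR, depended on the processing. It was 767 with DESeq2 at its default settings, 599 with DESeq2 after the edgeR filter and 296 in edgeR without a filter, and 2 to 37 with each library left out. The call of *Hmox1* depended on the same choices: it was 1 of the 9 genes called under each of these 3, where the pathway lists had 9, 8 and 5 genes called, and none of the 9 was called under the others or without any 1 library (0 to 0). Genes of the 9 at an unadjusted p under 0.05 were 1 to 3 with each library left out, and 1 without *ControlΔEC* replicate 1 or 2 or *Wt1KOΔEC* replicate 1 or 3. Scaling by library size only moved the median of all genes from -0.03 to -0.18 and the share of calls that were higher from 66.7% to 45.5%, and gave *Ftl1* -0.13. With libraries left out in turn, the log2 fold change ranged from -0.14 to 0.03 for *Hmox2*, from -0.07 to 0.09 for *Ftl1* and from -0.044 to 0.64 for *Blvrb*, and the log2 ratio difference from -0.39 to -0.06 for *Fth1* to *Ftl1* and from -2.48 to -1.25 for *Slc40a1* to *Tfrc*. With the replicate number as a block, 5 genes were called, none of them a member or a pathway gene, and 3 of the 9 had an unadjusted p under 0.05; deviations of same-numbered libraries correlated at 0.066, 0.184 and 0.110, so the numbers were not taken to pair the libraries, although each library correlated best with its own number. The cause of these differences was not tested. In the libraries with no *Cd163* count, depth allows up to 0.119 CPM.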
